A study of Homo sapiens with 12 samples.

Results

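Receptor tyrosine kinases were followed in C4-2, a human prostate cancer cell line that came from LNCaP cells and grows without androgen, by taking the rows of the raw count table that carry 42 listed receptor symbols out of 56269 rows in all. All 42 symbols had a row, and 29 of them passed the filter on low counts and were tested among 16115 genes; the other 13 are given by their counts. The 4 groups held 3 libraries each: paxillin siRNA with 2.5 nM dihydrotestosterone (DHT, the potent androgen), paxillin siRNA with ethanol vehicle, nonspecific siRNA with 2.5 nM DHT, and nonspecific siRNA with ethanol vehicle. All cells had 48 h of siRNA and 12 h without serum before 24 h of treatment, so every group was of 1 cell line, transfected and serum starved. The siRNA sequences were not used here. Paxillin is an adaptor protein of focal adhesions that also carries signals from growth factor receptors.

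Most receptor tyrosine kinases cross the plasma membrane once and bind a growth factor, an ephrin, a collagen or another ligand outside the cell. Binding brings receptors together, the kinase domains phosphorylate each other on tyrosine, and the phosphotyrosines recruit adaptors such as GRB2, SHC1 and the IRS proteins that feed the RAS and PI3 kinase pathways. Some members, among them ERBB3, EPHB6, PTK7 and RYK, have little or no kinase activity and act through partners. In the prostate the growth factors of this class carry signals between stroma and epithelium, and the androgen receptor is the nuclear receptor that DHT activates.

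Library totals ran from 11944906 counts (nonspecific siRNA vehicle replicate 1) to 32040465 counts (paxillin siRNA DHT replicate 1), and levels are given as CPM, counts scaled to a common library size after normalization by the trimmed mean of M-values (TMM). PXN, the targeted gene, had 14.2, 11.3 and 9.36 CPM in paxillin siRNA DHT libraries, against 136, 121 and 122 CPM in nonspecific siRNA DHT libraries. In vehicle it had 16.7, 12.4 and 12.3 CPM with paxillin siRNA, against 149, 139 and 151 CPM with nonspecific siRNA. FKBP5, an androgen receptor target, had 914 to 1151 CPM in paxillin siRNA DHT libraries against 46.3 to 49.7 CPM in paxillin siRNA vehicle libraries, and 1085 to 1413 CPM in nonspecific siRNA DHT libraries against 44.8 to 49.0 CPM in nonspecific siRNA vehicle libraries. All 10 luminal prostate markers were tested and summed to 8380 to 16300 CPM, basal markers to at most 1.35 CPM and immune markers to at most 0.734 CPM, with the basal marker KRT5 at 2 counts and CD3E at 0 counts over all libraries. Fibroblast and smooth muscle markers, of which 4 of 10 were tested, summed to 27.7 to 30.3 CPM in paxillin siRNA DHT, 39.0 to 40.3 CPM in paxillin siRNA vehicle, 36.6 to 40.7 CPM in nonspecific siRNA DHT and 41.4 to 51.5 CPM in nonspecific siRNA vehicle libraries. Most of this was COL1A1, at 10232 counts over all libraries. ACTA2 had 597 counts, PDGFRB 359, COL3A1 193, LUM 22 and DCN 2. Endothelial markers summed to 8.77 to 15.7 CPM, nearly all of it VWF, with PECAM1 and CDH5 at 8 counts each. The part of these marker sums in the receptor results was not tested, and PDGFRA, PDGFRB, KDR, FLT1 and KIT are both markers and receptors here. Along the second principal component, which held 17.2% of the variance, the paxillin siRNA libraries differed by replicate number, at -6.0, -10.7 and -16.7 in DHT and -5.9, -13.6 and -20.0 in vehicle, against 10.2 to 14.0 for the nonspecific siRNA libraries.

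The promoters of 5 receptors called for DHT under both siRNAs are shown as examples of the genes described here: IGF1R and FGFR3, which were higher with DHT, and MET, PTK7 and DDR2, which were lower. Each line is 250 bases before the first RefSeq start (GRCh38.p14, plus strand), at chr15:98648289-98648538 for IGF1R, chr4:1793043-1793292 for FGFR3, chr7:116671946-116672195 for MET, chr6:43076064-43076313 for PTK7 and chr1:162630613-162630862 for DDR2. Capitals mark the GC box GGGCGG, the TATA motif spelled TATAAA, and AGAACA, which is 1 arm of the androgen response element. Each was searched on both strands, so a capital run may read as the reverse complement of its motif.
IGF1R: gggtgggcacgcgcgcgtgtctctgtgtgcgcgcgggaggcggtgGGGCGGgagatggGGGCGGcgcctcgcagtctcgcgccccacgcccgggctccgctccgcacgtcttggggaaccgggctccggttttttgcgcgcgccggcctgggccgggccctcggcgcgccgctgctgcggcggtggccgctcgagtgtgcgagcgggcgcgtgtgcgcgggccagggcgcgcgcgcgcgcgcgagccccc
FGFR3: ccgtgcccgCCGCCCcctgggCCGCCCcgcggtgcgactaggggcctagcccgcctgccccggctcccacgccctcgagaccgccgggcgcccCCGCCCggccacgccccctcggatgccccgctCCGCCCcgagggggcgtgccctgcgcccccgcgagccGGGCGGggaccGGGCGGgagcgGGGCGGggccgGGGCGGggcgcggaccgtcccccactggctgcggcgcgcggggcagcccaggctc
MET: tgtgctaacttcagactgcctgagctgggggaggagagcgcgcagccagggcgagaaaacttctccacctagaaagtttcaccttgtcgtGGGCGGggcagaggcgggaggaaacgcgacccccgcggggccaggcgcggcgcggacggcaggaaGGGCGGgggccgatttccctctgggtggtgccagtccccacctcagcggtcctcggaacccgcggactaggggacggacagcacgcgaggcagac
PTK7: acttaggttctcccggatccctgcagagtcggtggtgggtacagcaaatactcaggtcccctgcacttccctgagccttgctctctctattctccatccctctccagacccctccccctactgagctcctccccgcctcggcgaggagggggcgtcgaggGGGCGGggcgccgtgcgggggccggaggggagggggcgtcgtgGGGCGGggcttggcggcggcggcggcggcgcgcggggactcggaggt
DDR2: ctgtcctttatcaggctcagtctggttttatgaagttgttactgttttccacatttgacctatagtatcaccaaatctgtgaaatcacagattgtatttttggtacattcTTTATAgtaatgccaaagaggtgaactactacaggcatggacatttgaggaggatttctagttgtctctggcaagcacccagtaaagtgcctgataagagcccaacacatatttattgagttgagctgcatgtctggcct
The FGFR3 stretch held 8 GC boxes, those of IGF1R, MET and PTK7 2 each, and that of DDR2 none, with 1 TATAAA on the minus strand. Over the 67 RefSeq windows of 39 members, from 250 bases before to 50 bases after a start, the full androgen response element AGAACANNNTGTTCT was in 0 windows. It was in 1 of all 35116 windows (0.00285%), too rare for 67 windows to tell the sets apart. Sequence outside these windows was not searched. The single arm AGAACA, which is part of the full element, was in 11.9% of member windows against 14.8% of all windows. The core ACANNNTGT, which also lies within the full element, was in 2.99% against 5.37%, TATAAA in 8.96% against 11.5% and GGGCGG in 70.1% against 45.0%. The median GC content was 65.0% in member windows and 58.7% in all windows. Both strands were searched, windows of 1 gene can overlap, and a match is a description of these letters only.

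ERBB2 and ERBB3 led the levels per kb of merged exon. Merged exons join those of every annotated transcript of a gene, such as 9.12 kb for DDR1, 10.3 kb for ERBB2 and 12.5 kb for EGFR. They can be longer than the messages made, which were not measured. The order of genes and the ratios between genes per kb depend on these lengths, while comparisons of groups within a gene do not. Set per kb of merged exon, ERBB3 (the kinase-impaired partner of ERBB2) had 38.4 ± 1.62 CPM per kb in paxillin siRNA DHT, 36.6 ± 2.17 in paxillin siRNA vehicle, 36.2 ± 2.70 in nonspecific siRNA DHT and 34.5 ± 3.96 in nonspecific siRNA vehicle (SD, n = 3 each). ERBB2, which has no known ligand of its own, had 29.6 ± 2.67, 44.6 ± 3.35, 25.5 ± 1.15 and 39.4 ± 4.62 CPM per kb in the same 4 groups. It ranked 2 of 42 in both DHT groups and 1 in both vehicle groups, and in nonspecific siRNA vehicle its range overlapped that of ERBB3. The next levels per kb were those of EPHB4 (21.2 to 24.6 as group means), EGFR (11.9 to 23.7), DDR1 (11.2 to 15.1) and LMTK2 (12.9 to 14.3). IGF1R ranked 5 in both DHT groups and 16 in both vehicle groups, with 16.4 and 18.1 CPM per kb in paxillin and nonspecific siRNA DHT and 3.46 and 3.94 CPM per kb in the vehicle groups. EGFR ranked 3 in both DHT groups, against 5 in paxillin siRNA vehicle and 7 in nonspecific siRNA vehicle. PTK7 moved the other way, to 10 and 11 in paxillin and nonspecific siRNA DHT, against 4 and 6 in the matching vehicle groups. Many neighbours in this order overlapped between libraries, such as EGFR and EPHB4 in nonspecific siRNA DHT, EPHB4 and PTK7 in paxillin siRNA vehicle, and STYK1, EPHB3, PTK7 and RYK in paxillin siRNA DHT. At the low end of the tested receptors, MET, MST1R, PDGFRB and EPHB6 had group means of at most 0.462 CPM per kb.

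**Figure D1:**
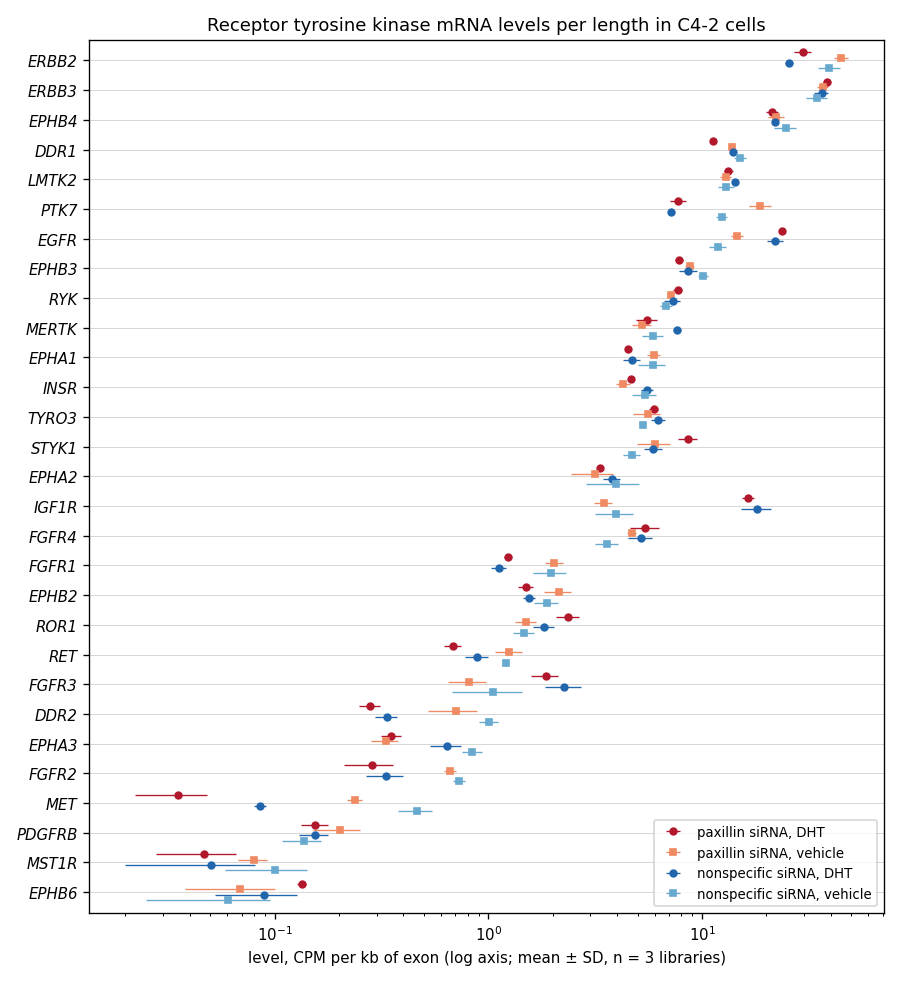
Levels of the 29 tested receptor tyrosine kinases in CPM per kb of exon on a log axis, as mean ± SD of 3 libraries, with circles for DHT and squares for vehicle. ERBB2 and ERBB3 are at the top in every group, IGF1R stands at 16.4 and 18.1 CPM per kb in DHT against 3.46 and 3.94 in vehicle, and MET reaches at most 0.462 CPM per kb.

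DHT moved receptor messages in both directions and by up to several fold. With paxillin siRNA, 5 of the 29 tested members rose (17.2%, against 20.1% of all genes tested) and 10 fell (34.5%, against 17.9%). With nonspecific siRNA, 7 rose (24.1%, against 21.6%) and 9 fell (31.0%, against 18.9%). A rise or fall means a Benjamini-Hochberg adjusted p under 0.05 over all 16115 genes in edgeR's quasi-likelihood test. IGF1R, FGFR3, EGFR and STYK1 rose and MET, DDR2, PTK7, FGFR2, RET, FGFR1, ERBB2 and EPHA1 fell under both siRNAs. These 12 are 80.0% of the members called with paxillin siRNA and 75.0% of those called with nonspecific siRNA; over all genes the shares were 76.2% and 71.4%, and the compared arms share no library. The members' median absolute log2 change was 0.51 with paxillin siRNA, against 0.25 for all genes, and 0.39 with nonspecific siRNA, against 0.27 for all genes. With upper-quartile scaling the split under nonspecific siRNA was 5 up and 13 down, and that of all genes moved the same way, to 16.8% up and 24.2% down. In bulk RNA, a change in the share of cells that make a message and a change in its amount per cell cannot be told apart.

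IGF1R, the receptor for insulin-like growth factors, changed most among the members that rose. It had 244, 229 and 214 CPM in paxillin siRNA DHT, against 53.4, 46.2 and 45.1 CPM in paxillin siRNA vehicle libraries, a log2 fold change of 2.25 ± 0.12 (SE; 4.75-fold; adjusted p = 1.38e-10). With nonspecific siRNA it had 297, 243 and 218 CPM in DHT, against 65.6, 55.7 and 43.6 CPM in vehicle, a log2 fold change of 2.21 ± 0.13 (4.64-fold; adjusted p = 1.74e-10). All 6 DHT libraries lay far above all 6 vehicle libraries. INSR, the insulin receptor of the same family, did not pass the DHT test, at log2 0.13 and 0.05 with paxillin and nonspecific siRNA (adjusted p = 0.246 and 0.644). Per kb, IGF1R stood at 2.93 to 3.67 times INSR in the 6 DHT libraries, against 0.642 to 0.829 times in the 6 vehicle libraries.

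EGFR, the receptor for EGF and TGFA, rose with DHT while its partner ERBB2 fell. EGFR had 289, 298 and 304 CPM in paxillin siRNA DHT against 179, 172 and 195 CPM in paxillin siRNA vehicle (log2 0.71 ± 0.08, adjusted p = 7.99e-07). It had 302, 263 and 262 CPM in nonspecific siRNA DHT against 157, 157 and 132 CPM in nonspecific siRNA vehicle (log2 0.90 ± 0.08, adjusted p = 4.71e-08). Neither pair of groups overlapped. ERBB2 had 284, 295 and 336 CPM in paxillin siRNA DHT against 451, 432 and 499 CPM in paxillin siRNA vehicle (log2 -0.59 ± 0.09, adjusted p = 2.50e-05). With nonspecific siRNA it had 269.9, 249.4 and 269.9 CPM in DHT against 457, 362 and 402 CPM in vehicle (log2 -0.63 ± 0.09, adjusted p = 1.32e-05). Again the groups were apart, and per kb EGFR stood at 0.746 to 0.923 times ERBB2 in DHT libraries, against 0.271 to 0.357 times in vehicle libraries. ERBB3 was at log2 0.07 under either siRNA (adjusted p = 0.536 and 0.499 with paxillin and nonspecific siRNA), and ERBB4, near the bottom of the order, had 6 counts over all 12 libraries. The annotation places exons of MIEN1 and PGAP3 on the opposite strand over 765 bases of ERBB2, and of EGFR-AS1 over 186 bases of EGFR, and no source used here states the strand setting of the counting.

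The 4 FGF receptors, which bind fibroblast growth factors together with heparan sulfate or a klotho protein, split by gene. FGFR3 had 10.4, 7.87 and 8.70 CPM in paxillin siRNA DHT against 4.34, 4.45 and 3.01 CPM in paxillin siRNA vehicle (log2 1.19 ± 0.21, adjusted p = 1.60e-04). In nonspecific siRNA DHT it had 13.4, 9.76 and 9.82 CPM, against 7.17, 3.68 and 4.44 CPM in nonspecific siRNA vehicle (log2 1.18 ± 0.21, adjusted p = 2.04e-04). FGFR3 was thus higher in every DHT library, and FGFR2 was lower in every one. FGFR2 had 1.87, 1.81 and 2.80 CPM in paxillin siRNA DHT against 4.93, 4.74 and 5.36 CPM in paxillin siRNA vehicle (log2 -1.22 ± 0.18, adjusted p = 4.03e-05). It had 2.23, 3.09 and 2.25 CPM in nonspecific siRNA DHT against 5.95, 5.35 and 5.26 CPM in nonspecific siRNA vehicle (log2 -1.12 ± 0.19, adjusted p = 1.03e-04). Per kb, FGFR3 stood at 4.86 to 9.41 times FGFR2 in DHT libraries and at 0.877 to 1.88 times in vehicle libraries. FGFR1 had 16.4, 17.9 and 17.1 CPM in paxillin siRNA DHT against 27.2, 26.3 and 31.2 CPM in paxillin siRNA vehicle (log2 -0.72 ± 0.11, adjusted p = 3.67e-05). In nonspecific siRNA DHT it had 14.0, 15.99 and 16.5 CPM, against 32.8, 23.9 and 25.0 CPM in nonspecific siRNA vehicle (log2 -0.79 ± 0.11, adjusted p = 1.77e-05). The FGFR1 groups did not overlap under either siRNA; exons of LETM2 and AC087623.1 lie opposite 294 bases of the gene. FGFR4 had 30.2, 26.1 and 22.1 CPM in paxillin siRNA DHT against 23.9, 22.1 and 21.99 CPM in paxillin siRNA vehicle, groups that overlapped (log2 0.21 ± 0.11, adjusted p = 0.166). It had 27.9, 25.2 and 21.5 CPM in nonspecific siRNA DHT against 19.8, 16.7 and 15.6 CPM in nonspecific siRNA vehicle, where it rose (log2 0.53 ± 0.12, adjusted p = 1.72e-03). With the replicate number as a block, FGFR4 also passed with paxillin siRNA (adjusted p = 0.0318). The difference between the DHT responses did not pass (log2 -0.32, adjusted p = 0.186 with the block and 0.595 without it).

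**Figure D2:**
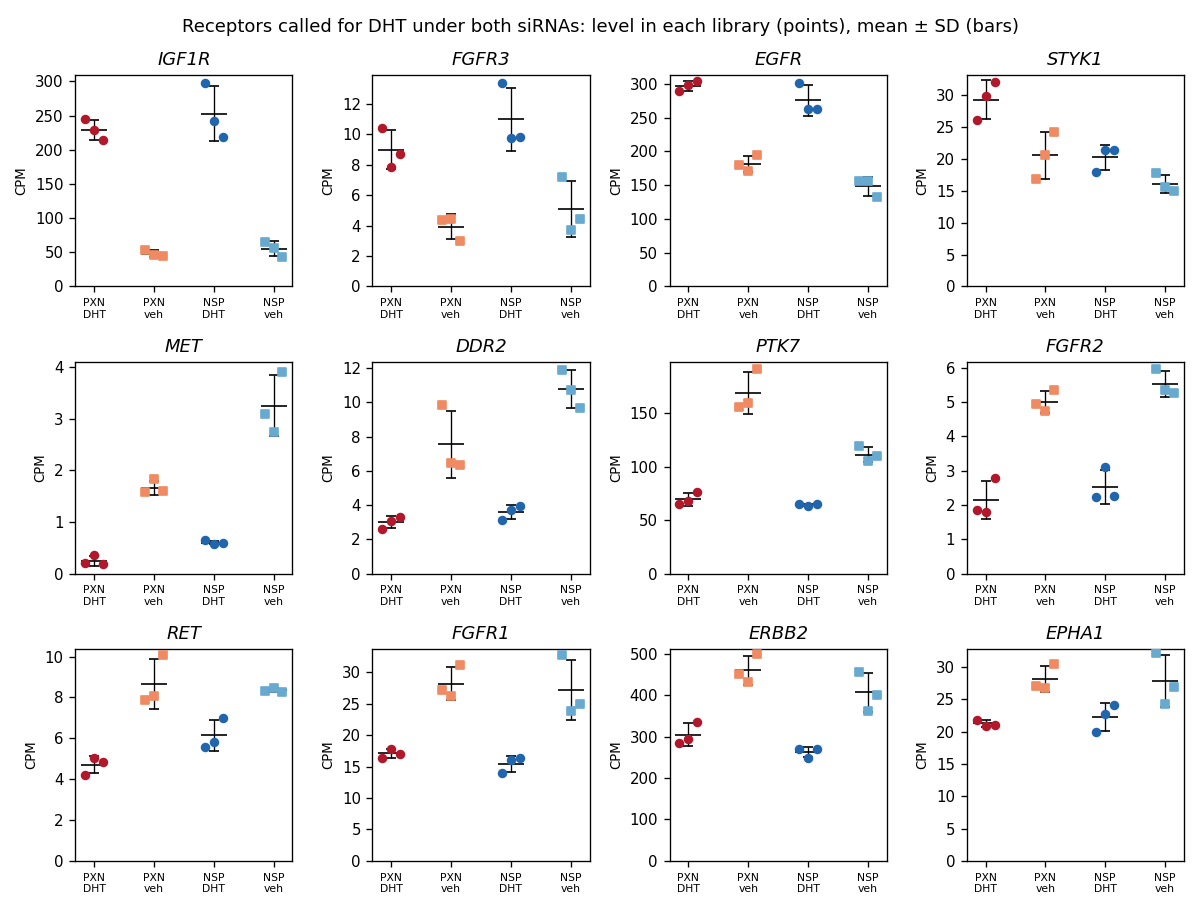
Levels in CPM of the 12 receptors called for DHT under both siRNAs, one point a library, with mean ± SD of 3 libraries, for paxillin siRNA (PXN) DHT and vehicle and nonspecific siRNA (NSP) DHT and vehicle from left to right; every axis starts at 0. The DHT and vehicle points are apart within each siRNA for IGF1R, EGFR, MET, DDR2, PTK7, FGFR2 and ERBB2, and STYK1 with nonspecific siRNA is the closest pair among the genes that rose, at 18.0 to 21.4 CPM in DHT against 15.0 to 17.8 CPM in vehicle.

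MET, the receptor for hepatocyte growth factor, was the receptor that fell furthest with DHT in both arms, from a low level. It had 6, 9 and 5 counts in paxillin siRNA DHT against 48, 50 and 44 counts in paxillin siRNA vehicle libraries, or 0.197, 0.354 and 0.194 CPM against 1.58, 1.82 and 1.59 CPM. The log2 fold change was -2.74 ± 0.30 (6.67-fold lower, adjusted p = 1.10e-06). With nonspecific siRNA it had 15, 13 and 16 counts in DHT against 38, 71 and 104 counts in vehicle, or 0.643, 0.567 and 0.5998 CPM against 3.10, 2.75 and 3.91 CPM (log2 -2.43 ± 0.25, 5.38-fold lower, adjusted p = 5.54e-07). The groups were far apart in both arms. MST1R, the related receptor for macrophage-stimulating protein, was at log2 -0.77 and -0.85 with paxillin and nonspecific siRNA and did not pass (adjusted p = 0.229 and 0.187), at group means of 0.246 to 0.526 CPM.

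DDR2 and DDR1 are receptors for collagen. DDR2 had 2.62, 3.07 and 3.30 CPM in paxillin siRNA DHT against 9.83, 6.46 and 6.38 CPM in paxillin siRNA vehicle (log2 -1.34 ± 0.18, adjusted p = 9.08e-06). It had 3.13, 3.70 and 3.94 CPM in nonspecific siRNA DHT against 11.9, 10.7 and 9.70 CPM in nonspecific siRNA vehicle (log2 -1.57 ± 0.18, adjusted p = 1.20e-06). Every DHT library was below every vehicle library. Of the 4 tested fibroblast and smooth muscle markers, 3 fell with DHT under paxillin siRNA (COL3A1 at log2 -2.25, ACTA2 at -0.87 and COL1A1 at -0.37, with PDGFRB at -0.38 not past the threshold) and 1 under nonspecific siRNA (COL3A1 at -2.48), where COL1A1 was at -0.19, ACTA2 at 0.22 and PDGFRB at 0.15; their part in the DDR2 result was not tested. DDR1, the epithelial member, had 102, 99.0 and 105 CPM in paxillin siRNA DHT against 128, 121 and 128 CPM in paxillin siRNA vehicle (log2 -0.30 ± 0.06, adjusted p = 6.93e-04). With nonspecific siRNA it had 130.0, 124 and 128 CPM in DHT against 134, 131 and 148 CPM in vehicle, and did not pass (log2 -0.11 ± 0.06, adjusted p = 0.140).

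PTK7 and ROR1, both linked to Wnt signalling and without strong kinase activity, went in opposite directions with DHT. PTK7 had 65.0, 67.7 and 76.3 CPM in paxillin siRNA DHT against 156, 159.6 and 192 CPM in paxillin siRNA vehicle (log2 -1.28 ± 0.08, adjusted p = 6.06e-10). It had 64.9, 62.8 and 65.0 CPM in nonspecific siRNA DHT against 119, 105 and 110 CPM in nonspecific siRNA vehicle (log2 -0.79 ± 0.08, adjusted p = 4.23e-07). The DHT groups thus stood at nearly the same level and the vehicle groups did not. ROR1 had 14.9, 14.6 and 18.0 CPM in paxillin siRNA DHT against 8.91, 10.1 and 11.1 CPM in paxillin siRNA vehicle (log2 0.66 ± 0.12, adjusted p = 2.73e-04). It had 10.9, 12.2 and 13.7 CPM in nonspecific siRNA DHT against 8.80, 9.84 and 11.0 CPM in nonspecific siRNA vehicle, overlapping groups (log2 0.30 ± 0.13, adjusted p = 0.0646; 8.96e-03 with the replicate block). Per kb, PTK7 stood at 3.15 to 4.42 times ROR1 in DHT libraries against 7.44 to 13.0 times in vehicle libraries. RET, the receptor for the GDNF family with GFRA co-receptors, had 4.23, 5.04 and 4.86 CPM in paxillin siRNA DHT against 7.86, 8.06 and 10.1 CPM in paxillin siRNA vehicle (log2 -0.88 ± 0.13, adjusted p = 4.68e-05). In nonspecific siRNA DHT it had 5.57, 5.84 and 7.01 CPM, against 8.32, 8.49 and 8.27 CPM in nonspecific siRNA vehicle (log2 -0.44 ± 0.14, adjusted p = 0.0147). RET was lower in every DHT library; the call with nonspecific siRNA was lost without nonspecific siRNA DHT replicate 1 (log2 -0.37) or replicate 2 (log2 -0.40). RYK, another Wnt receptor, was at log2 0.10 in both arms (adjusted p = 0.280 and 0.263 with paxillin and nonspecific siRNA).

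Eph receptors bind ephrins on neighbouring cells, and 7 of the 11 listed passed the filter. None rose with DHT, and 2 fell in each arm (28.6%, against 17.9% of all genes with paxillin and 18.9% with nonspecific siRNA). EPHA1 averaged 21.2 ± 0.479 CPM in paxillin siRNA DHT against 28.1 ± 2.04 CPM in paxillin siRNA vehicle (SD, n = 3; log2 -0.40, adjusted p = 3.15e-03 by edgeR). It averaged 22.2 ± 2.14 CPM in nonspecific siRNA DHT against 27.8 ± 4.01 CPM in nonspecific siRNA vehicle (log2 -0.31, adjusted p = 0.0205). EPHB2 averaged 18.7 ± 1.46 CPM in paxillin siRNA DHT and 26.7 ± 3.89 CPM in paxillin siRNA vehicle (log2 -0.51, adjusted p = 1.07e-03), and was at log2 -0.26 with nonspecific siRNA (adjusted p = 0.0698; 0.0422 with the replicate block). EPHB3 averaged 39.0 ± 3.79 CPM in nonspecific siRNA DHT against 45.8 ± 2.60 CPM in nonspecific siRNA vehicle (log2 -0.23, adjusted p = 0.0246), and was at log2 -0.17 with paxillin siRNA (adjusted p = 0.0955). EPHB4 passed with nonspecific siRNA only with the replicate block (log2 -0.16; adjusted p = 0.0381, against 0.114 without it). Under nonspecific siRNA the EPHA1 call was lost without vehicle replicate 1 (log2 -0.20) or DHT replicate 1 (log2 -0.23), and the EPHB3 call without vehicle replicate 1 (log2 -0.21), vehicle replicate 3 (log2 -0.20) or DHT replicate 1 (log2 -0.15).

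The TAM receptors MERTK and TYRO3, which bind GAS6 and protein S, rose with DHT under nonspecific siRNA. MERTK had 34.6, 37.4 and 35.8 CPM in nonspecific siRNA DHT against 31.3, 26.2 and 25.6 CPM in nonspecific siRNA vehicle (log2 0.39 ± 0.10, adjusted p = 4.39e-03). In paxillin siRNA DHT it had 25.6, 29.1 and 23.1 CPM against 26.7, 21.8 and 25.4 CPM in paxillin siRNA vehicle, overlapping groups (log2 0.07 ± 0.10, adjusted p = 0.604). TYRO3 averaged 68.3 ± 5.09 CPM in nonspecific siRNA DHT against 57.8 ± 1.28 CPM in nonspecific siRNA vehicle (SD, n = 3; log2 0.24, adjusted p = 0.0319 by edgeR). Its call was lost with upper-quartile scaling (log2 0.17) and without vehicle replicate 1, 2 or 3 (log2 0.25, 0.23 and 0.25) or DHT replicate 3 (log2 0.18). STYK1, a receptor-like kinase without a ligand-binding region outside the cell, had 26.1, 29.9 and 32.04 CPM in paxillin siRNA DHT against 16.9, 20.6 and 24.2 CPM in paxillin siRNA vehicle (log2 0.51 ± 0.12, adjusted p = 1.88e-03). In nonspecific siRNA DHT it had 18.0, 21.4 and 21.4 CPM, against 17.8, 15.5 and 15.0 CPM in nonspecific siRNA vehicle (log2 0.34 ± 0.12, adjusted p = 0.0335). The groups lay close together with nonspecific siRNA, and that call was lost with upper-quartile scaling (log2 0.27) and without vehicle replicate 2 or 3 (log2 0.32 and 0.30) or DHT replicate 2 or 3 (log2 0.31 and 0.30).

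**Figure D3:**
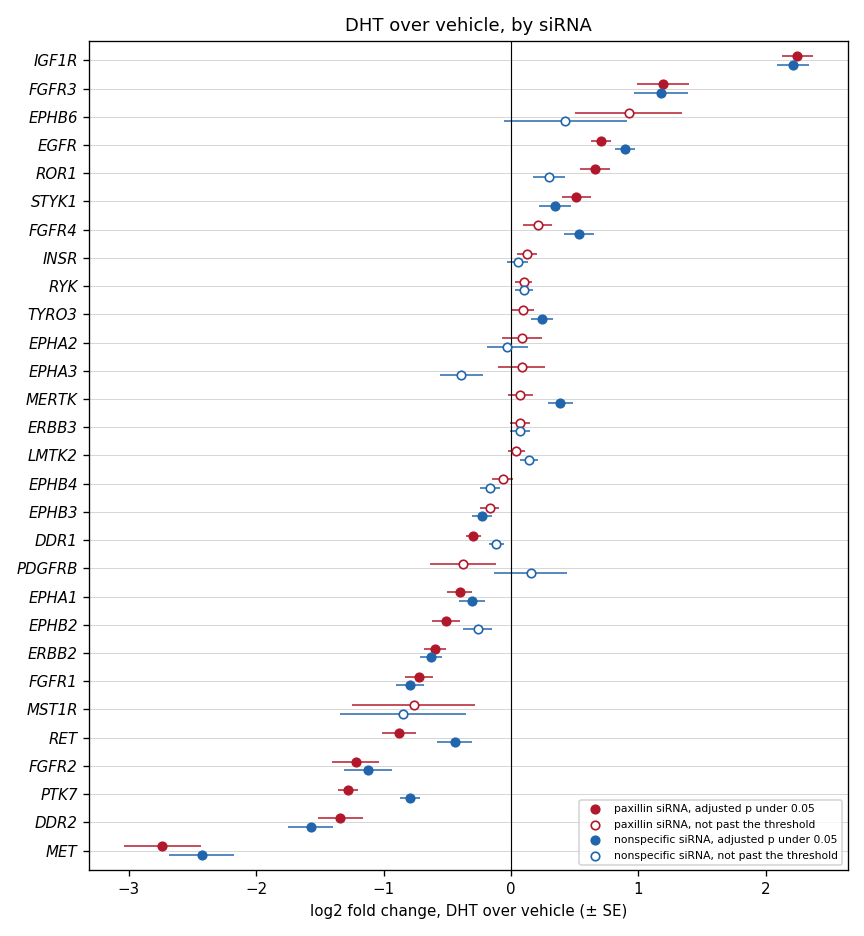
Log2 fold changes of the 29 tested receptors for DHT over vehicle (± SE), red with paxillin siRNA and blue with nonspecific siRNA, filled where the adjusted p was under 0.05. IGF1R is at 2.25 and 2.21 at the top and MET at -2.74 and -2.43 at the bottom, for paxillin and nonspecific siRNA, and 26 of 29 members have the same sign in both arms.

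Of the 29 members, 26 had the same sign of DHT change under both siRNAs (89.7%, against 80.7% of all genes). The 3 with unlike signs, EPHA2, EPHA3 and PDGFRB, passed in neither arm. The difference between the DHT responses was tested as the interaction, which calls 0.0372% of all genes up and 0.0124% down, and it called 0 of 29 members with edgeR. At an unadjusted p under 0.05 there were 4 of the 29 (PTK7, RET, MERTK and DDR1), against 1435 of all 16115 genes. DESeq2, which gave adjusted p-values for 25 members and 11428 genes, called 1 member down, against 0.236% of genes up and 0.236% down. With limma-voom 0 members and 0% of all genes were called. PTK7 had the smallest p, with a DHT fall that was greater with paxillin siRNA by 0.49 on the log2 scale (interaction -0.49 ± 0.11, adjusted p = 0.186). With the replicate number as a block it passed, at -0.49 (adjusted p = 0.0134), and with DESeq2 as well (adjusted p = 0.031). Members called in only 1 arm therefore were not shown to differ between the siRNAs.

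Paxillin siRNA was called for fewer receptors than DHT was, as for all genes. In DHT, 1 of 29 members rose (3.45%, against 6.34% of all genes) and 4 fell (13.8%, against 7.00%). In vehicle, 4 rose (13.8%, against 10.7%) and 4 fell (13.8%, against 9.78%). With the replicate number as a block more of all genes were called in both treatments. In DHT 3 members were up (10.3%, against 10.4% of all genes) and 6 down (20.7%, against 11.2%), and in vehicle 5 were up (17.2%, against 14.8%) and 6 down (20.7%, against 13.5%). STYK1 rose and EPHA3 and MET fell in both treatments, which is 60.0% of the 5 members called in DHT and 37.5% of the 8 called in vehicle; over all genes the shares were 62.2% and 40.5%. The members' median absolute log2 change was 0.14 in DHT and 0.18 in vehicle, against 0.16 and 0.18 for all genes. RLE scaling gave 2 up and 4 down in DHT, where ROR1 joined the members that rose, against 6.54% of all genes up and 6.86% down.

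EPHA3, an ephrin-A receptor, was the member with the largest fall in vehicle. It had 2.43, 2.33 and 1.85 CPM in paxillin siRNA vehicle against 6.03, 4.96 and 5.87 CPM in nonspecific siRNA vehicle (log2 -1.34 ± 0.18, 2.53-fold lower, adjusted p = 7.84e-05). In DHT it had 2.33, 2.60 and 2.10 CPM with paxillin siRNA against 3.77, 3.92 and 5.06 CPM with nonspecific siRNA (log2 -0.86 ± 0.18, adjusted p = 3.54e-03). All 6 paxillin siRNA libraries lay below all 6 nonspecific siRNA libraries. MET in vehicle had 1.58, 1.82 and 1.59 CPM with paxillin siRNA against 3.10, 2.75 and 3.91 CPM with nonspecific siRNA (log2 -0.97 ± 0.22, adjusted p = 4.39e-03). In DHT its 20 counts over the paxillin siRNA libraries stood against 44 over the nonspecific siRNA libraries (log2 -1.28 ± 0.36, adjusted p = 0.0240), a call lost without paxillin siRNA DHT replicate 1 (log2 -1.12) or 3 (log2 -1.15) or without nonspecific siRNA DHT replicate 1, 2 or 3 (log2 -1.23, -1.32 and -1.28). STYK1 had 26.1, 29.9 and 32.04 CPM in paxillin siRNA DHT against 18.0, 21.4 and 21.4 CPM in nonspecific siRNA DHT (log2 0.53 ± 0.12, adjusted p = 5.63e-03). Its vehicle groups overlapped, at 16.9, 20.6 and 24.2 CPM with paxillin siRNA against 17.8, 15.5 and 15.0 CPM with nonspecific siRNA (log2 0.36 ± 0.12, adjusted p = 0.0435). That call was lost without paxillin siRNA vehicle replicate 2 (log2 0.37) or 3 (log2 0.24), nonspecific siRNA vehicle replicate 2 (log2 0.35) or 3 (log2 0.32), or replicate 2 of either DHT group (adjusted p = 0.0551 without that of paxillin siRNA and 0.0531 without that of nonspecific siRNA), with limma-voom (adjusted p = 0.0588) and with the compared groups fitted alone (adjusted p = 0.0578).

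MERTK and DDR1 fell with paxillin siRNA in DHT. MERTK had 25.6, 29.1 and 23.1 CPM in paxillin siRNA DHT against 34.6, 37.4 and 35.8 CPM in nonspecific siRNA DHT (log2 -0.47 ± 0.10, adjusted p = 3.81e-03). DDR1 had 102, 99.0 and 105 CPM in paxillin siRNA DHT against 130.0, 124 and 128 CPM in nonspecific siRNA DHT (log2 -0.32 ± 0.06, adjusted p = 1.87e-03). Neither gene's groups overlapped, and in vehicle they were at log2 -0.15 and -0.14 and did not pass (adjusted p = 0.306 and 0.117 for MERTK and DDR1). The difference between treatments did not pass for either gene (interaction -0.32 and -0.18, adjusted p = 0.525 and 0.549). With the replicate block, ERBB2 (log2 0.21, adjusted p = 0.0239) and ROR1 (log2 0.37, adjusted p = 3.63e-03) were also called higher and INSR (log2 -0.25, adjusted p = 4.92e-03) and RET (log2 -0.38, adjusted p = 0.0333) lower in DHT.

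In vehicle, PTK7 rose with paxillin siRNA, at 156, 159.6 and 192 CPM against 119, 105 and 110 CPM with nonspecific siRNA (log2 0.60 ± 0.08, 1.52-fold, adjusted p = 7.35e-05). In DHT it had 65.0, 67.7 and 76.3 CPM with paxillin siRNA against 64.9, 62.8 and 65.0 CPM with nonspecific siRNA and did not pass (log2 0.12 ± 0.08, adjusted p = 0.382). FGFR4 had 23.9, 22.1 and 21.99 CPM in paxillin siRNA vehicle against 19.8, 16.7 and 15.6 CPM in nonspecific siRNA vehicle (log2 0.40 ± 0.12, adjusted p = 0.0246). EGFR had 179, 172 and 195 CPM in paxillin siRNA vehicle against 157, 157 and 132 CPM in nonspecific siRNA vehicle (log2 0.29 ± 0.08, adjusted p = 0.0119). These 3 genes were higher in every paxillin siRNA vehicle library. DDR2 had 9.83, 6.46 and 6.38 CPM in paxillin siRNA vehicle against 11.9, 10.7 and 9.70 CPM in nonspecific siRNA vehicle, groups that overlapped through paxillin siRNA replicate 1 (log2 -0.50 ± 0.16, adjusted p = 0.0365). INSR had 48.3, 41.8 and 44.0 CPM in paxillin siRNA vehicle against 64.4, 53.25 and 50.9 CPM in nonspecific siRNA vehicle (log2 -0.32 ± 0.08, adjusted p = 0.0110). Leaving out 1 library, which also leaves fewer to test, ended 4 of these calls. FGFR4 was lost without paxillin siRNA vehicle replicate 1 (log2 0.37) or nonspecific siRNA vehicle replicate 2 (log2 0.39) or 3 (log2 0.34), and EGFR without paxillin siRNA vehicle replicate 3 (log2 0.25) or nonspecific siRNA vehicle replicate 3 (log2 0.22). DDR2 was lost without paxillin siRNA vehicle replicate 2 (log2 -0.39) or 3 (log2 -0.38), without nonspecific siRNA vehicle replicate 1 (log2 -0.43) or 2 (log2 -0.49), and with the compared groups fitted alone (log2 -0.49). INSR was lost without paxillin siRNA vehicle replicate 2 (log2 -0.27) or nonspecific siRNA vehicle replicate 1 (log2 -0.21). With the replicate block, ERBB2 (log2 0.18, adjusted p = 0.0435) was also called higher and EPHA2 (log2 -0.31, adjusted p = 0.0395) and EPHB3 (log2 -0.20, adjusted p = 0.0330) lower in vehicle.

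**Figure D4:**
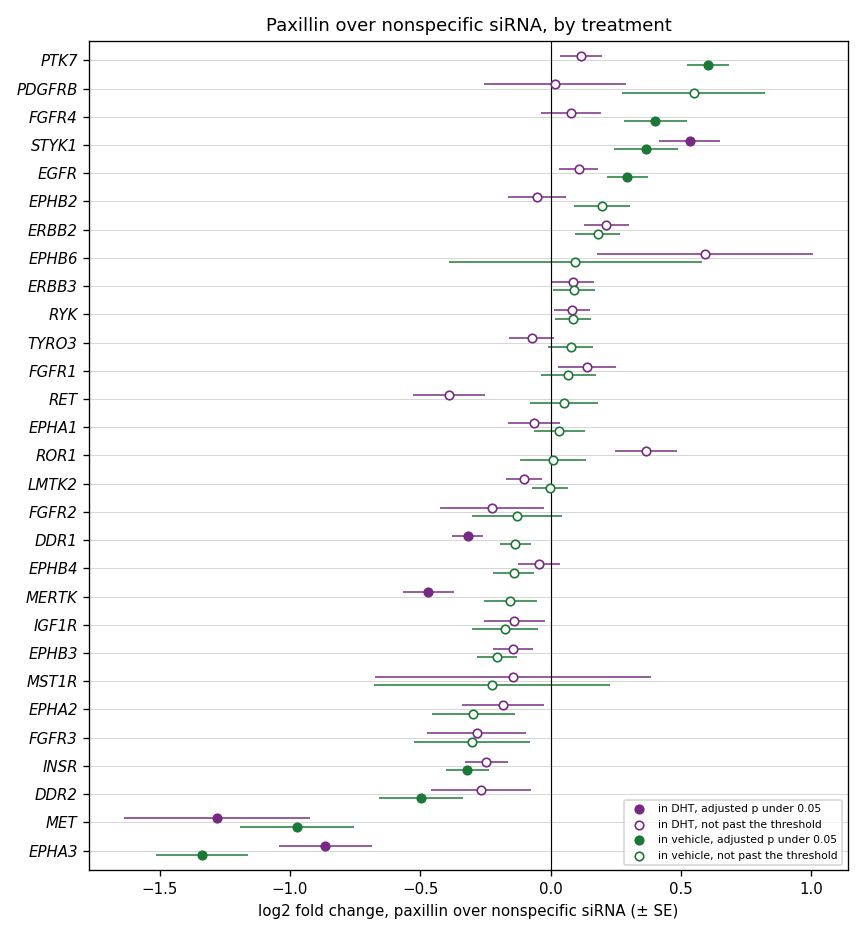
Log2 fold changes of the 29 tested receptors for paxillin over nonspecific siRNA (± SE), purple in DHT and green in vehicle, filled where the adjusted p was under 0.05. EPHA3 (-0.86 in DHT and -1.34 in vehicle) and MET (-1.28 and -0.97) lie at the bottom, and PTK7 is filled in vehicle (0.60) and open in DHT (0.12).

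EPHA2, EPHB4, EPHB6, ERBB3, LMTK2, MST1R, PDGFRB and RYK passed in none of the 4 comparisons without the block. The 13 members under the filter had 3 to 73 counts each over all 12 libraries. EPHB1 (73 counts) and EPHA5 (72 counts) were the highest of them, and KDR and PDGFRA (3 counts each), KIT (4 counts), ERBB4 (6 counts), EPHA7 (7 counts), AXL (13 counts), EPHA4 and NTRK3 (14 counts each), FLT1 (21 counts), NTRK2 (45 counts) and ROR2 (46 counts) made up the rest. A total of 3 counts over a group corresponds to 0.0351 to 0.0464 CPM, depending on the group. ROR2, a Wnt5a receptor, had 7, 10 and 12 counts in paxillin siRNA vehicle against 1, 1 and 4 counts in nonspecific siRNA vehicle, a ratio of summed scaled counts of 3.66 (exact 95% interval 1.49 to 10.8). Its 8 counts in paxillin siRNA DHT against 29 in paxillin siRNA vehicle gave a ratio of 0.289 (0.114 to 0.647). NTRK3, the neurotrophin-3 receptor, had 4, 2 and 5 counts in paxillin siRNA DHT against 0 in the 3 nonspecific siRNA DHT libraries. With the floor of 3 counts over the group put in place of 0, NTRK3 was 3.28-fold higher, a value without an interval. NTRK2 had 7 counts in paxillin siRNA DHT against 20 in paxillin siRNA vehicle, a ratio of 0.366 (0.131 to 0.901). EPHA4 had 2 counts in paxillin siRNA vehicle against 8 in nonspecific siRNA vehicle, a ratio of 0.189 (0.0196 to 0.948). For NTRK3, 11 counts in paxillin siRNA DHT against 2 in paxillin siRNA vehicle gave 5.75 (1.26 to 53.4). ERBB4 had 0 counts in nonspecific siRNA DHT against 4 in nonspecific siRNA vehicle, or 0.665 times with the floor in place of 0, again without an interval. Every other interval of these 13 members in the 4 comparisons included 1. AXL, also a TAM receptor, had 6 of its 7 paxillin siRNA vehicle counts in replicate 3. The intervals hold counting error alone, because the reads carry no molecular identifiers and can be copies of 1 molecule, and they do not measure the spread between libraries. With no filter on low counts all 42 members were tested over libraries, and none of these 13 was called. In that fit 3.84% to 10.5% of all 34208 genes tested were called in each direction of the 4 comparisons. ROR2 passed the filter in some fits that left out 1 library. It was called in some of these, lower with DHT under paxillin siRNA or higher with paxillin siRNA in vehicle.

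The ligands of these receptors and the proteins that act on them were taken as lists, to be read against the shares of all genes called for DHT, 20.1% up and 17.9% down with paxillin siRNA and 21.6% up and 18.9% down with nonspecific siRNA. Among 8 ephrins, 2 rose (25.0%) and 4 fell with DHT in each arm: EFNA5 (log2 1.24 with paxillin and 0.79 with nonspecific siRNA) and EFNA1 (0.21 and 0.38) rose, and EFNB3 (-1.12 and -1.23), EFNB2 (-1.09 and -0.61), EFNB1 (-0.63 and -0.54) and EFNA3 (-0.29 and -0.38) fell. All 3 B-type ephrins thus fell in both arms. Of 11 EGF family ligands 3 were tested, and the EGFR ligands HBEGF (-1.64 and -1.28) and TGFA (-0.63 and -1.07) fell, while EGF was at -0.19 and -0.02. IGF1, the ligand of IGF1R, rose (1.06 and 1.01), at 20.1 ± 2.27 CPM in paxillin siRNA DHT against 9.61 ± 3.11 CPM in paxillin siRNA vehicle, and 17.9 ± 1.05 CPM in nonspecific siRNA DHT against 9.21 ± 3.35 CPM in nonspecific siRNA vehicle (SD, n = 3). Among the IGF binding proteins, IGFBP4 fell in both arms (-2.30 and -1.70), IGFBP2 fell with paxillin siRNA (-0.22) and IGFBP3 with nonspecific siRNA (-1.22); without nonspecific siRNA vehicle replicate 3 the IGFBP3 call was lost (adjusted p = 0.0542), and without nonspecific siRNA DHT replicate 1 or 2 that of IGFBP4 with nonspecific siRNA (adjusted p = 0.0661 and 0.0647). Of 24 FGF ligands and co-receptors 8 were tested. KL, the klotho co-receptor, rose (3.75 and 2.53), and FGFRL1, a receptor without a kinase domain, rose with nonspecific siRNA (0.41). FGF11 also rose with nonspecific siRNA (2.07). Its call was lost with DESeq2, upper-quartile scaling and without any of 6 single libraries, with adjusted p up to 0.164. FGF13 (-1.33 and -1.40), a member of the family that stays inside the cell, and FGF21 (-2.13 and -1.21) fell. The changes of KL, FGF11 and IGFBP4 rest on few counts. KL had 133 counts in paxillin siRNA DHT against 10 in vehicle, and 80 against 12 with nonspecific siRNA. FGF11 had 25 counts in nonspecific siRNA DHT against 5 in vehicle. IGFBP4 had 11 counts in DHT against 58 in vehicle with paxillin siRNA, and 11 against 32 with nonspecific siRNA.

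Of 29 other ligands and co-receptors, 15 were tested, and 1 rose (6.67%) and 7 fell (46.7%) with paxillin siRNA, 2 rose (13.3%) and 10 fell (66.7%) with nonspecific siRNA. The shares of all genes were again 20.1% and 17.9% with paxillin siRNA and 21.6% and 18.9% with nonspecific siRNA. NRP1, a co-receptor for VEGF and semaphorins, fell (-1.52 and -1.49), at 109.7 ± 14.7 CPM in paxillin siRNA DHT against 313 ± 22.2 CPM in paxillin siRNA vehicle. KITLG, the ligand of KIT (-1.16 and -1.57), GAS6, the TAM ligand (-0.97 and -0.67), and GDNF, a RET ligand (-1.13 and -1.58), also fell, while ARTN, another GDNF family ligand, rose (0.30 and 0.51). VEGFA rose with nonspecific siRNA (0.27). Of 25 tested adaptors, 5 rose and 6 fell (24.0%) with paxillin siRNA, and 7 rose (28.0%) and 10 fell (40.0%) with nonspecific siRNA. The docking proteins of IGF1R and INSR, IRS1 (0.94 and 0.80) and IRS2 (1.10 and 1.53), and SHC1 (0.45 in both arms) rose, and GAB2 rose with nonspecific siRNA (0.96). PIK3R1, the regulatory subunit of PI3 kinase (-0.66 and -1.01), SHC3 (-1.04 and -1.45), SHC2 (-0.78 and -0.98), DOK1 (-0.91 and -0.71) and GRB10, an inhibitory adaptor of insulin and IGF1 receptors (-1.05 and -0.86), fell. Of 19 tested negative regulators, 8 rose (42.1%) and 2 fell (10.5%) in both arms: SOCS2 (2.11 and 1.91), ERRFI1, an inhibitor of EGFR (1.88 and 1.86), and LRIG1, which lowers ERBB receptors (1.29 and 1.58), rose most, and LRIG3 (-1.58 and -1.63) and LRIG2 (-0.34 and -0.36) fell. Among these DHT calls, TGFA, IGFBP2, LRIG2 and GDNF with paxillin siRNA and LRIG2 and DOK1 with nonspecific siRNA were lost when certain single libraries were left out, with adjusted p up to 0.185. EFNA1 and ARTN with paxillin siRNA and VEGFA with nonspecific siRNA were lost in that way and also with upper-quartile scaling (adjusted p = 0.169, 0.141 and 0.123), and ARTN also with DESeq2 (0.0539) and with no filter (0.101).

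**Figure D5:**
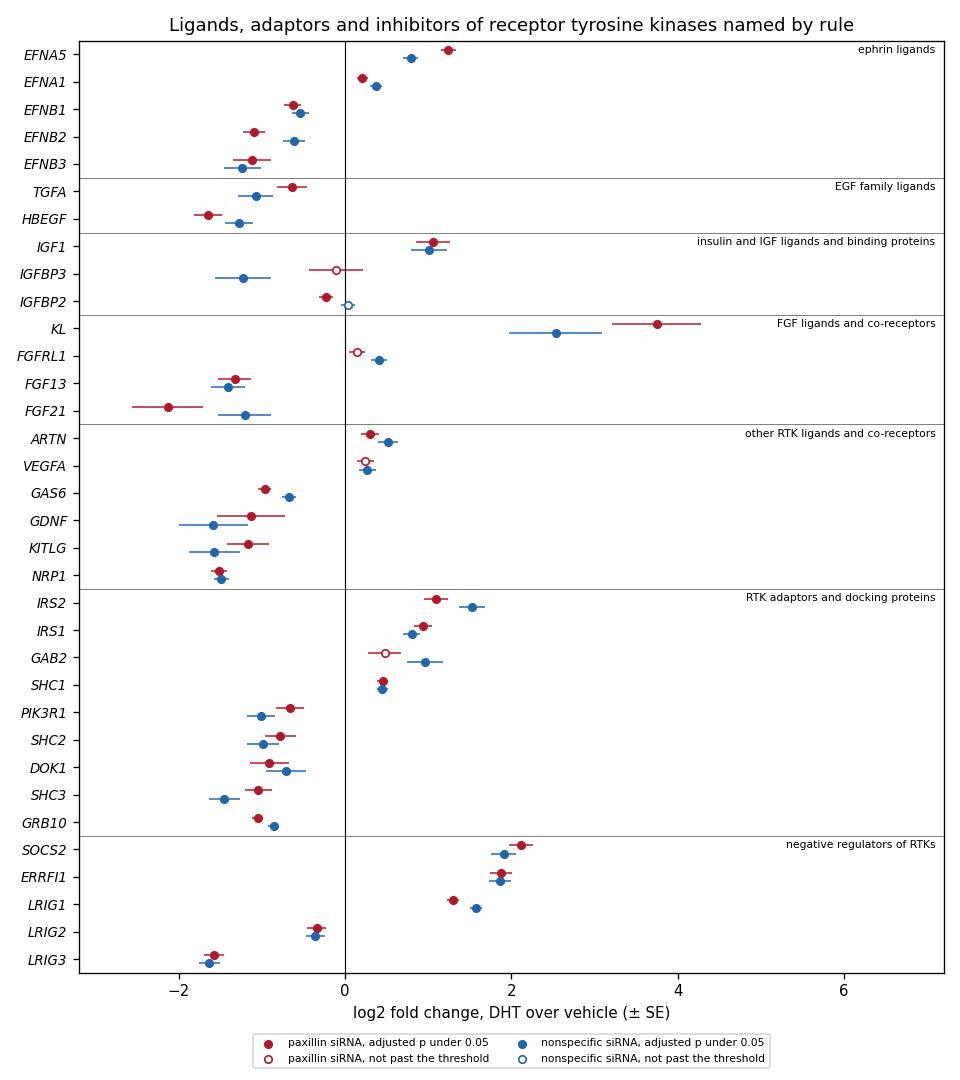
Log2 fold changes for DHT over vehicle (± SE) of ligands, adaptors and negative regulators, in blocks by list, red with paxillin siRNA and blue with nonspecific siRNA, filled where the adjusted p was under 0.05. The 3 B-type ephrins, HBEGF and TGFA are left of 0 in both arms, and IGF1, IRS1, IRS2, SOCS2, ERRFI1 and LRIG1 are right of 0 in both arms.

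With paxillin siRNA, the called partners stood against 6.34% of all genes up and 7.00% down in DHT and 10.7% up and 9.78% down in vehicle. Of the 8 ephrins, 1 rose (12.5%) and 3 fell (37.5%) in DHT and 2 fell (25.0%) in vehicle. Of the 25 adaptors, 3 rose (12.0%) and 2 fell in DHT, and 2 rose and 5 fell in vehicle. EFNA5 fell in both treatments, at 149.6 ± 13.0 CPM in paxillin siRNA DHT against 228 ± 10.6 CPM in nonspecific siRNA DHT and 63.3 ± 7.997 CPM in paxillin siRNA vehicle against 132 ± 15.0 CPM in nonspecific siRNA vehicle (log2 -0.61 and -1.06; SD, n = 3). EPHA3 and EFNA5, an ephrin-A receptor and an ephrin-A, therefore both fell in both treatments. PIK3R1 (1.02 in DHT and 0.68 in vehicle), SHC3 (0.96 and 0.55), PROS1, the protein S ligand of TAM receptors (1.03 and 0.59), VEGFB (0.37 and 0.28) and PTPRJ, a receptor phosphatase (0.28 and 0.39), rose in both. IRS1 (-0.37 and -0.51), GRB10 (-0.62 and -0.43), VEGFA (-0.47 and -0.45), EGF (-0.42 and -0.25) and FGF21 (-2.41 and -1.49) fell in both. Past the threshold in DHT but not in vehicle, KITLG (1.12), TGFA (0.86), CRK (0.56) and EFNA3 (0.26) rose and EFNB2 (-0.51), GAS6 (-0.50) and EFNA1 (-0.22) fell; past it in vehicle but not in DHT, FGFBP3 (1.03), LRIG1 (0.28) and IGFBP2 (0.27) rose and GAB1 (-0.70), SPRED1 (-0.44) and EFNA4 (-0.39) fell. PDGFC, at group means of 0.38 CPM in paxillin siRNA vehicle and 1.33 CPM in nonspecific siRNA vehicle, fell there (-1.78), and also in DHT (-1.73), where its mean was under 1 CPM in both groups. In DHT, TGFA, KITLG, IRS1, PTPRJ, EFNA1, EFNA3 and EFNB2, and in vehicle, EFNA4, IGFBP2, LRIG1, PROS1, EGF, SHC3, VEGFB and SPRED1, lost their calls when certain single libraries were left out (adjusted p up to 0.162). Of these, KITLG was also lost with limma-voom (adjusted p = 0.0712), EGF and SPRED1 with no filter (0.124 and 0.0558) and IGFBP2 with the compared groups fitted alone (0.0724). With the replicate block, 10.4% of all genes were up and 11.2% down in DHT, and 14.8% up and 13.5% down in vehicle. The called ephrins in vehicle then numbered 4 rather than 2, and the FGF ligands and co-receptors in DHT 4 rather than 1. Negative regulators numbered 3 rather than 1 in DHT and 5 rather than 3 in vehicle. In vehicle the insulin and IGF list had 2 rather than 1. Other ligands and co-receptors had 6 rather than 4 there, and adaptors 9 rather than 7. KITLG, CRK, EFNA3 and GAS6 were thus called in vehicle too, and FGFBP3 in DHT too. Without the block the interaction called 0 genes of these lists, against 0.0372% of all genes up and 0.0124% down. With it EFNA5 was called, against 0.261% up and 0.341% down. Genes called in 1 treatment were therefore not shown to differ between treatments.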

How the data were processed

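The authors deposited raw read counts of 56269 gene symbols in 12 libraries of C4-2 cells, made with a stranded mRNA kit per the labels' protocols. The submitters' processing notes name Trimmomatic 0.36, STAR 2.5.2b, featureCounts of Subread 1.5.0p3 and the build GRCh38; no source used here gives the annotation release or strand setting, so antisense, overlapping and paralogous genes are uncertain. Counts were tested in R 4.3.3 with edgeR 4.0.16: genes passing filterByExpr (minimum count 10, minimum total 15; 16115 genes), TMM scaling, and quasi-likelihood tests of 4 group means over all 12 libraries, with Benjamini-Hochberg adjustment and a threshold of 0.05. Each test is two-sided. The procedure was tested on simulated data. CPM was computed from the TMM-scaled totals; 1 count was worth 0.0328 to 0.0815 CPM. Levels per kb used merged exons of GENCODE 29, promoters came from RefSeq, and ratios of low counts have exact 95% intervals where both groups had counts.

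The members and gene lists were chosen with earlier results of these data known. Values in every library are given for up to 6 called members that rose and 6 that fell per comparison, where either group averaged 1 CPM or more; of each other list, up to 3 each way are named. MET and PDGFC for paxillin siRNA in DHT, EFNA3, IGFBP4 and FGF11 for DHT, the fibroblast markers, and genes that the rule names in 1 arm and the text gives in both, lie outside it and were chosen after their values were seen. No label states that replicates came from different cultures, and p-values then measure only the spread between these samples, which may be technical; replicate libraries differed by more than sampling noise (chi-square per degree of freedom 6.16 to 18.6). Deviations of same-numbered libraries from their group means correlated at 0.15 to 0.49 in all 18 pairs of libraries (10701 genes), so same-numbered libraries were treated as paired in a further fit that blocked on replicate. The other settings tried were upper-quartile and RLE scaling, no low-count filter, DESeq2 1.42.0, limma-voom (limma 3.58.1), the compared groups alone, a threshold of 0.01 and leaving out each library.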

Additional observations from a re-analysis of the deposited data

How the results depend on the processing

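Of the 44 member calls, 33 kept their direction and stayed past the threshold in every alternative, 11 lost it in at least 1, and none of the 44 changed sign; RLE scaling, DESeq2 and the replicate block kept all 44. All 11 were lost at an adjusted p under 0.01. Of the 156 calls of genes on the ligand, adaptor, regulator, further receptor and fibroblast lists, 109 held throughout and none changed sign. The number of members called with paxillin siRNA in DHT was 5, with 8 when no filter was used and 9 with the replicate block. Of the 16115 genes tested, 6.34% were up and 7.00% down, and 10.4% and 11.2% with the block. With no filter 34208 genes and all 42 members were tested, so those shares have another base. There 1314 genes (3.84%) were up and 1373 (4.01%) down, against 1021 and 1128 with the filter. In vehicle the number of members called was 8, with 3 at an adjusted p under 0.01 and 5 to 10 when single libraries were left out. The lowest of these, 5, came without paxillin siRNA vehicle replicate 2 or 3 or nonspecific siRNA vehicle replicate 2 or 3. The shares of all genes fell too, from 10.7% up and 9.78% down to 5.37% and 4.88% at 0.01. Without any of those vehicle libraries they were 6.01% to 9.04% up and 5.24% to 7.42% down. Leaving out single libraries gave 4 to 7 in DHT, 15 to 17 for DHT with paxillin siRNA and 14 to 17 for DHT with nonspecific siRNA. For the interaction, 0 members were called with edgeR and 1 with no filter, with DESeq2 and with the replicate block, PTK7 each time (adjusted p = 0.00163, 0.031 and 0.0134). The share of all genes called down was 0.0124% with edgeR, and 0.284%, 0.236% and 0.341% in those fits, in that order. The log2 interaction of PTK7 ran over -0.57 to -0.40 when single libraries were left out. The causes were not tested. The replicate block ended no call of a member; the calls it added stand beside the results. Depth limits the 13 members under the filter, whose groups held 0 to 29 counts.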

Other observations

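Of 16 further receptor tyrosine kinases outside the 42, 6 were tested, of which 2 rose and 2 fell with DHT under paxillin siRNA and 2 rose and 1 fell under nonspecific siRNA, against 20.1% up and 17.9% down, and 21.6% up and 18.9% down, of all genes. EPHA6, an Eph receptor, averaged 34.8 ± 6.17 CPM in paxillin siRNA DHT against 24.3 ± 6.34 CPM in paxillin siRNA vehicle, and 51.9 ± 4.70 CPM in nonspecific siRNA DHT against 34.4 ± 6.05 CPM in nonspecific siRNA vehicle (SD, n = 3 each). It rose with DHT (log2 0.52 with paxillin and 0.61 with nonspecific siRNA, adjusted p = 0.0143 and 4.50e-03 by edgeR) and fell with paxillin siRNA (log2 -0.57 in DHT and -0.48 in vehicle, adjusted p = 0.0187 and 0.0402). DESeq2 did not call EPHA6 for paxillin siRNA in either treatment, nor did the compared groups fitted alone in vehicle. EPHA10, an Eph receptor without kinase activity, went the other way in each comparison. It averaged 13.8 ± 0.195 CPM in paxillin siRNA DHT against 19.8 ± 0.602 CPM in paxillin siRNA vehicle, and 8.95 ± 0.817 CPM in nonspecific siRNA DHT against 13.3 ± 0.539 CPM in nonspecific siRNA vehicle. It fell with DHT (log2 -0.52 and -0.57, adjusted p = 1.09e-04 and 8.90e-05) and rose with paxillin siRNA (log2 0.63 in DHT and 0.57 in vehicle, adjusted p = 2.56e-04 and 2.55e-04). LMTK3, related to LMTK2, rose with DHT in both arms (log2 0.46 and 0.35). FLT4, a VEGF receptor at 0.79 CPM in paxillin siRNA DHT against 1.79 CPM in paxillin siRNA vehicle, fell there (log2 -1.18, adjusted p = 3.05e-03). EPHA6 with paxillin siRNA and LMTK3 with nonspecific siRNA lost their DHT calls when certain single libraries were left out (adjusted p up to 0.0856), LMTK3 also with upper-quartile scaling (0.0584) and with no filter (0.0521), and EPHA6 lost both paxillin siRNA calls in the same way (adjusted p up to 0.204).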
